A study of Mus musculus with 2 samples.

Results

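Among the shortest gene models of a mouse liver RNA data set, 3 loci stood above all others in RPKM, the read count divided by gene length and by mapped reads, in the cold-storage library, and 2 of them also in the sham library. They are XLOC_011916 and XLOC_011917, neighbours on chromosome 12, and XLOC_039512 on chromosome 6. They were taken by their row identifiers from a table of 3592 rows, and were chosen by their high RPKM and short span, so their height is described here and not tested. The table compares 2 libraries of total RNA, with 1 library per group: a sham-treated control liver, and a liver kept cold in preservation fluid after removal. Both came from male C57BL/6 mice, a common inbred strain, aged 8 to 12 weeks. The protocols in the labels describe a flush of the liver with 30 mL of UW solution, a fluid for donor organs, and storage in it at 4 °C for 12 or 24 h. No source used here says which of these times the cold-storage library had, or how many animals each library holds. There are no replicates, so all differences below are between single libraries, and no test was run.

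Small nuclear RNAs are short, abundant, mostly non-polyadenylated transcripts that work as RNA-protein particles. U4 RNA pairs with U6 RNA in the spliceosome and is released before splicing is catalysed. 7SK RNA is a scaffold that holds P-TEFb, the kinase that frees paused RNA polymerase II, in an inactive complex. In the human genome the expressed U4 genes lie side by side on chromosome 12 and the 7SK gene lies on chromosome 6. No human annotation was used here, so the 3 loci are not named, and this background is no evidence of what they are.

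The table gives no gene symbols, and its positions are printed as deposited. The submitters' processing notes name the mouse build mm9, but some rows lie beyond the ends of mouse chromosomes, so the build of these positions is left unstated. XLOC_011916 runs from 120729565 to 120729706 on chromosome 12, and XLOC_011917 from 120730899 to 120731040. Their starts are 1334 bp apart, and 1193 bp separate them. XLOC_039512 runs from 52860417 to 52860748 on chromosome 6. The spans, taken as end minus start, are 141 bp for each of the neighbours and 331 bp for XLOC_039512. No other row overlaps any of the 3 loci. The neighbours are the shortest loci in the table, where the next longer span is 255 bp, and 5 rows, the neighbours included, are shorter than XLOC_039512. Only 3 sets of adjacent, separate loci in the table start within 2 kb of each other, and the chromosome 12 neighbours are the only set with equal spans.

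The label of small nuclear RNA was checked against mouse genes in GENCODE release M21, on build GRCm38. Positions were compared as printed, and no annotation of mm9, the build in the processing notes, was used. None of the 55536 annotated genes has the start and end of any of the 3 loci. Such a match can miss genes whose positions differ between builds. Read as GRCm38, the chromosome 12 positions fall 708.3 kb past the end of the last annotated gene of that chromosome. No match was therefore possible for the neighbours, whatever they are. The chromosome 6 position would fall inside Jazf1, a protein-coding gene, and 573.6 kb from the nearest annotated start of a small nuclear or miscellaneous RNA gene. Read as GRCm38, the chromosome 6 position therefore matched no mouse gene of this kind, and the chromosome 12 positions could match none. No mm9 genes were searched. Because some rows lie beyond the ends of mouse chromosomes, mm9 is not taken as the build of these positions either. The label could not be checked at the loci themselves.

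The lengths alone do occur among mouse small RNA genes. GENCODE lists 24 mouse genes of exactly 141 bases, of which 8 are among its 1385 small nuclear RNA genes. Of these 8, on 5 chromosomes, 2 lie side by side: Gm24265 at chr5:115489459-115489599 and Gm24407 at chr5:115490254-115490394, both on the plus strand, with starts 795 bp apart. GENCODE lists 27 mouse genes of 331 bases, 22 of them processed pseudogenes and 1 a miscellaneous RNA. That 1 is Rn7sk, the mouse 7SK gene, at chr9:78175303-78175633 on the minus strand. Counted with both end bases, the loci would be 142 and 332 bases long, and 15 and 7 genes have those lengths. They include 2 small nuclear RNA genes and 1 miscellaneous RNA gene of 142 bases, and 1 miscellaneous RNA gene of 332 bases. A shared length does not identify a locus. These mouse genes lie on other chromosome numbers than the 3 loci, but with the build of the positions unstated this says nothing about identity.

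The transcripts of the 2 adjacent mouse genes show how alike 2 neighbouring copies can be, which bears on how reads are divided between such copies. They come from GENCODE M21 on GRCm38 and are not the sequences of the 3 loci, for which no genome of the same build was used. Capitals mark the positions at which Gm24265 and Gm24407 differ.
Gm24265: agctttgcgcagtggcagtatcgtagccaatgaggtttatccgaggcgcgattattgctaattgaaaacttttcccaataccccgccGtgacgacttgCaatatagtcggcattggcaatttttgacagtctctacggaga
Gm24407: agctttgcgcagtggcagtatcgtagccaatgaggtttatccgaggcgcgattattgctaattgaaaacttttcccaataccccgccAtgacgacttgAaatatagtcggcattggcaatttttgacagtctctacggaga
The 2 neighbouring mouse copies are identical at 139 of 141 positions (98.6%). With Gm24265 first and positions counted from 1 at the 5′ end, they differ by G88A and C99A. The longest stretch without a difference is 87 bases, so a read inside it could come from either copy. No source used here says how the authors' counting divided reads between copies of this kind, and whether the 2 chromosome 12 loci are such copies was not established.

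XLOC_011916 measured 93419 RPKM in sham and 55427 RPKM in cold storage. It was the most abundant row of the table in both, 36.5 times the highest row outside the 3 loci in sham and 42.8 times in cold storage. XLOC_011917 had 1763 RPKM in sham and 1861 RPKM in cold storage. It ranked 4 of all rows in sham and 3 in cold storage. XLOC_039512 was listed at 0 in sham and had 24218 RPKM in cold storage, where it ranked 2 of all rows. The neighbours were thus high in both libraries, and XLOC_039512 in the cold-storage library alone.

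The other 52 loci under 1 kb were far lower. Their highest value was 385.1 RPKM in sham and 72.2 RPKM in cold storage. In each library 36 of these 52 loci were above 0, with a median of 6.40 RPKM in sham and 1.75 RPKM in cold storage. XLOC_011916 stood 242.6-fold above the highest of them in sham and 767.5-fold in cold storage. XLOC_011917 stood 4.58-fold above it in sham and 25.8-fold in cold storage, and XLOC_039512 335.4-fold in cold storage. Of the 52, 7 span 295 to 360 bp, as XLOC_039512 does. Of these, 3 had 132.2 to 385.1 RPKM in sham, and the other 4 reached at most 4.06 RPKM in either library. The limits of this range are the shortest and longest spans of those 4 low loci, so the split depends on that choice. Just outside it, a locus of 255 bp had 27.2 RPKM in sham, and loci of 374 bp had 0 and 6.36 RPKM.

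**Figure D1:**
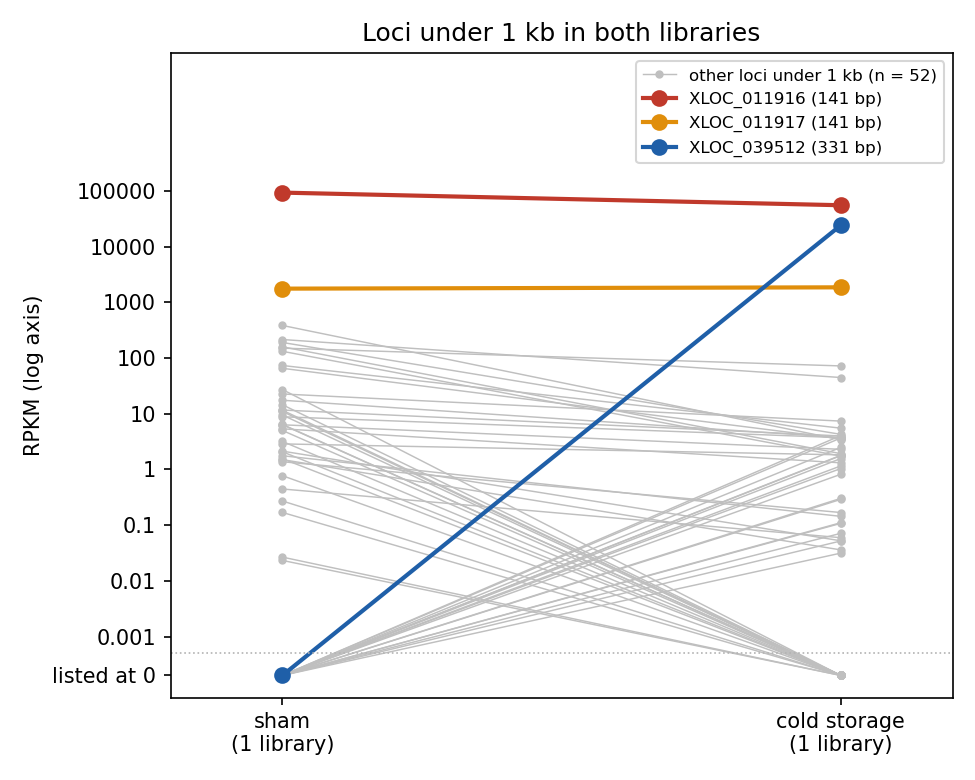
RPKM on a log axis in the sham library and the cold-storage library (1 each) for the 55 loci under 1 kb, with a line per locus and values of 0 drawn below the dotted line. XLOC_011916 and XLOC_011917 lie above the other 52 loci in both libraries, and XLOC_039512 goes from a listed 0 to 24218 RPKM.

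The 3 loci held most of the RPKM sum in both libraries. They summed to 95181 of 138892 RPKM in sham (68.5%) and to 81506 of 87310 RPKM in cold storage (93.4%). In cold storage XLOC_039512 alone held 27.7%. The other rows summed to 43710 RPKM in sham and to 5804 RPKM in cold storage, which is 7.53-fold lower, whereas the sum of the 3 loci was 1.17-fold lower. Within the 3 loci, the neighbours together were 1.66-fold lower in cold storage, and XLOC_039512 made up most of that difference. The column totals, of which the 3 loci are the larger part, differed 1.59-fold.

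**Figure D2:**
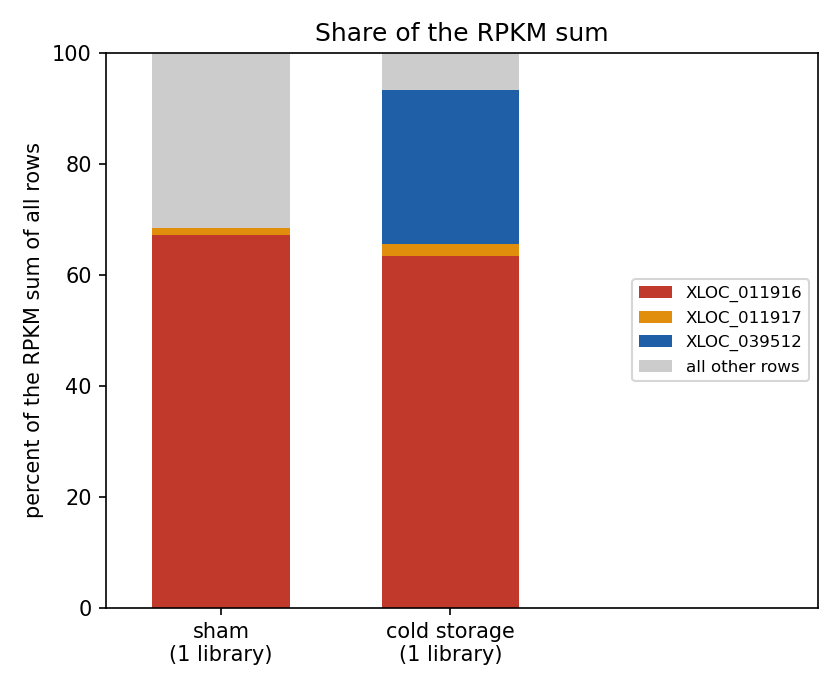
Percent of the RPKM sum of all 3592 rows held by each of the 3 loci and by all other rows, in the sham and the cold-storage library (1 each). The coloured parts reach 68.5% in sham and 93.4% in cold storage, and the part of XLOC_039512 is present in cold storage only.

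Because of the division by length, a share of RPKM differs from a share of reads. RPKM times span is the share of mapped reads if the authors divided by the whole span. On that basis XLOC_011916 held 1.32% of mapped reads in sham and 0.78% in cold storage. XLOC_011917 held 0.0249% in sham and 0.0262% in cold storage, and XLOC_039512 held 0.80% in cold storage. If a shorter effective length was used, the shares would be lower still. Counted this way, XLOC_039512 stood just above XLOC_011916 in cold storage, whereas by RPKM it was 2.29-fold below it. By RPKM times span XLOC_011916 ranked 66 of all rows in sham and 13 in cold storage, and XLOC_011917 ranked 624 and 179. In sham XLOC_011916 was 1.32% of mapped reads on this basis, but 0.307% of RPKM times span summed over all rows. That sum thus exceeds all mapped reads. If each read was counted once, the whole span was not the length used for every row. The sham ranks are therefore not ranks by reads. The spans of longer rows may include introns, which would place those rows too high in this order.

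The ratios of the neighbours between the libraries lay above those of most rows. Ratios of cold storage over sham were taken on the log2(RPKM + 0.1) scale for the 962 rows with a mean of at least 0.5 RPKM and values above 0 in both libraries. Among them 92.0% lay 2-fold or more below sham in cold storage and 1.25% lay 2-fold or more above it, with a median log2 ratio of -3.50. Of the 2 neighbours, 0 were called in either direction. The log2 ratio of XLOC_011916 was -0.75, a value 1.69-fold lower in cold storage as deposited, and it was above 0 under 3 of 4 other scalings of the libraries. That of XLOC_011917 was 0.08, a value 1.06-fold higher. Against the median of the compared rows the 2 log2 ratios were 2.74 and 3.58. Higher ratios than that of XLOC_011916 were found in 65 of the compared rows (6.76%), and higher ratios than that of XLOC_011917 in 33 (3.43%).

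The other abundant rows mostly fell below sham in cold storage. Of 55 other compared rows with a mean of at least 100 RPKM, 52 lay 2-fold or more below sham, 3 lay within 2-fold and 0 were at least 2-fold higher. Their median log2 ratio was -3.97. Among them, 2 had a higher ratio than XLOC_011916 and 1 had a higher ratio than XLOC_011917. Of the 21 compared rows under 1 kb, 85.7% were at least 2-fold lower. The 19 of these that are not the neighbours had log2 ratios from -6.78 to -0.63, with a median of -2.46, and 1 of them lay within 2-fold. Their highest ratio was above that of XLOC_011916 and below that of XLOC_011917.

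**Figure D3:**
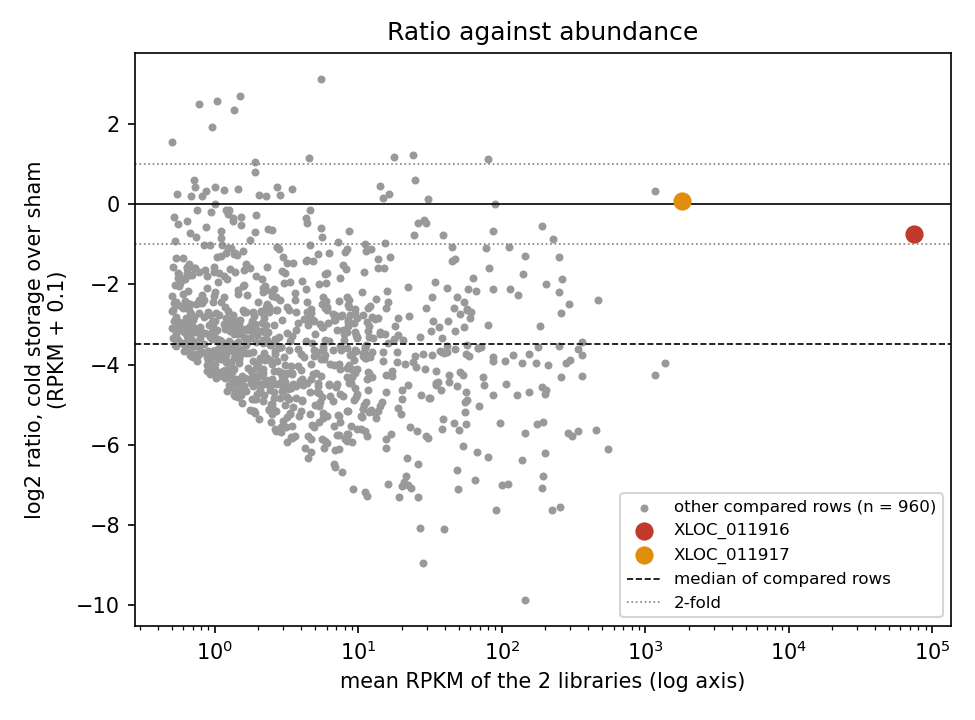
Log2 ratio of cold storage over sham (RPKM + 0.1) against the mean RPKM of both libraries on a log axis for the 962 compared rows, with dotted lines at 2-fold and a dashed line at the median of -3.50. XLOC_011916 at -0.75 and XLOC_011917 at 0.08 lie between the dotted lines and well above the dashed line. XLOC_039512 has no ratio because it is listed at 0 in sham.

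The 5 most abundant of the other short loci were all lower in cold storage. The first, on chromosome 2 at 76672204 to 76672536, spans 332 bp, close to XLOC_039512, and measured 385.1 RPKM in sham and 3.40 RPKM in cold storage. The second, on chromosome 1 at 182305135 to 182305475, spans 340 bp and measured 215.2 and 44.7 RPKM. Another, of 873 bp, lies on chromosome 3 at 155705092 to 155705965 and measured 190.4 and 4.27 RPKM. These 3 were 113.1-fold, 4.81-fold and 44.6-fold lower in cold storage. One of 768 bp on chromosome 2, at 114415484 to 114416252, measured 159.1 and 1.92 RPKM. The nearest to level of the 5 spans 432 bp on chromosome X, at 108297360 to 108297792, with 150.7 and 72.2 RPKM.

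XLOC_039512 shared its listed 0 in sham with many rows, mostly of very low RPKM, and none of them came near its level in cold storage. A listed 0 in sham with a value above 0 in cold storage occurred in 29.2% of all rows (1048 of 3592) and in 30.9% of the rows under 1 kb. A listed 0 may stand for a failed estimate, so no fold is given. The next highest of these rows, at 105245513 to 105517050 on chromosome 7, had 23.04 RPKM in cold storage, so XLOC_039512 stood 1051-fold above it. It was followed by a locus at 80186272 to 80231607 on chromosome 17 with 7.84 RPKM and a locus at 110967001 to 111120355 on chromosome 4 with 7.75 RPKM. The median over the 1048 rows, XLOC_039512 included, was 0.0161 RPKM in cold storage, and 40 of them were above 1 RPKM. Among the 16 other loci under 1 kb that were listed at 0 in sham, values in cold storage ran from 0.0315 to 4.06 RPKM. In the opposite direction 904 rows had a listed 0 in cold storage, and the highest of them reached 46.5 RPKM in sham.

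The 2 neighbours have the same span, so their ratio depends neither on length nor on any scaling between the libraries. In sham XLOC_011916 was 53.0 times as high as XLOC_011917, and in cold storage 29.8 times. XLOC_011917 thus made up 1.85% of the sum of both loci in sham and 3.25% in cold storage. The ratio was 1.78-fold lower in cold storage, a change of -0.83 on the log2 scale.

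The printed values bear on how many reads may stand behind these ratios. The values have 6 significant digits, which place the sham ratio between 52.999787 and 53.000145, a range that holds the whole number 53. In cold storage the range is 29.785585 to 29.785799, and the ratio of smallest whole numbers inside it is 417 to 14. The smallest read counts that give the deposited values exactly are therefore 53 and 1 in sham and 417 and 14 in cold storage, and any common multiple of each would serve as well. Whether these are the counts was not established. At these smallest counts the share of XLOC_011917 would be 1 of 54 in sham, with a 95% exact Clopper-Pearson interval of 0.0469% to 9.89%, and 14 of 431 in cold storage, with an interval of 1.79% to 5.39%. The intervals cover counting error only and would be narrower at any multiple of these counts, so the error of the ratio is not known here.

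At the smallest counts, 1 read of these loci would be worth 1763 RPKM in sham and 132.9 RPKM in cold storage, a 13.3-fold difference. Different multiples of the counts in the 2 libraries would change that difference. The median compared row was 11.3-fold lower in cold storage on the RPKM + 0.1 scale. A link between the 2 differences was not tested. At the smallest counts XLOC_011916 would be 53 reads in sham and 417 in cold storage, although its RPKM was lower in cold storage. With the whole span of 141 bp as the length, 1 read at those values would mean 4024 mapped reads in sham and 53357 in cold storage. The lowest sham value among loci under 1 kb, 0.0233 RPKM over 750 bp, would then be 7e-05 of a read. For whole reads, the smallest counts and the whole span therefore cannot both hold. Common multiples of the counts, or a length shorter than the span, would make the totals larger, and the 2 cannot be told apart here. The part of read depth in the differences between the libraries was not tested. In 2 other cases a library had exactly 2 loci under 1 kb of equal span above 0. Their smallest whole numbers were 879 to 11 for 747 bp in sham and 343 to 332 for 345 bp in cold storage. Any 2 printed values give such a ratio at some size, so these numbers need not be read counts.

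The surroundings of the loci carried little signal. Within 1 Mb of XLOC_011916, 12 other rows at 9 loci were at 0 to 11.9 RPKM in sham, 8 of them at 0, and at most at 1.37 RPKM in cold storage. The nearest row before the neighbours, 26.0 kb away, was listed at 0 in sham and at 0.0416 RPKM in cold storage. Of the other rows on chromosome 12, which lists 246 in all, the highest had 786.4 RPKM in sham and 150.6 RPKM in cold storage. Within 1 Mb of XLOC_039512 there were 2 rows, both at 0 in sham, with 0.0412 and 0.00512 RPKM in cold storage. The highest other value on chromosome 6 in cold storage was 21.3 RPKM.

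**Figure D4:**
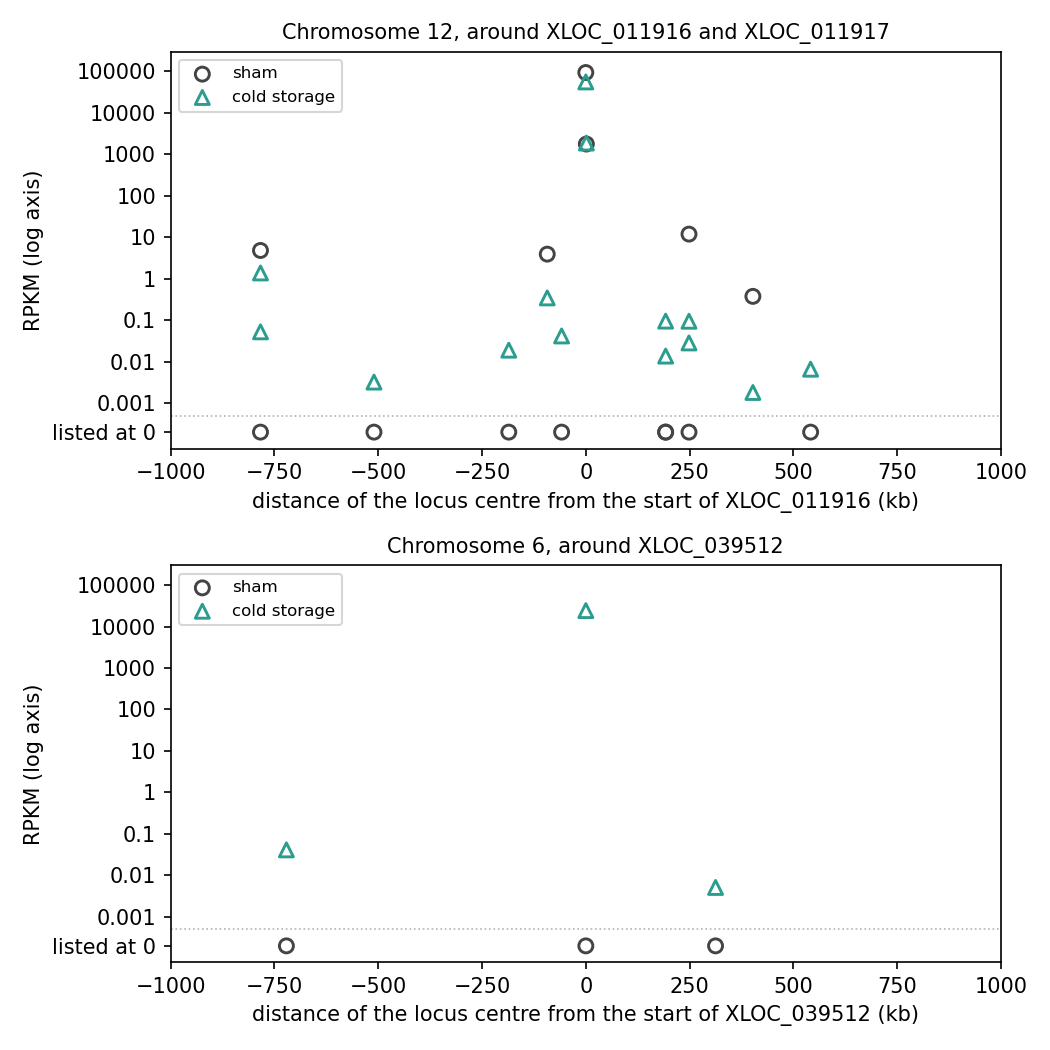
RPKM on a log axis of all rows whose centre lies within 1000 kb of XLOC_011916 (top) and XLOC_039512 (bottom), against the distance of the centre in kb, with circles for sham, triangles for cold storage and values of 0 below the dotted line. The 3 loci stand alone; the other rows reach 11.9 RPKM in sham and 1.37 RPKM in cold storage.

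The rows most like each locus were sought by their ratio over the 2 libraries. For XLOC_011916 the nearest were at 47922668 to 48135298 on chromosome 2 (49.0 RPKM in sham and 28.8 RPKM in cold storage) and at 141323149 to 141369856 on chromosome 5 (30.5 and 17.8 RPKM), followed by one at 86730553 to 87005164 on chromosome 2 (0.852 and 0.479 RPKM). Their log2 ratios differed from its own by 0.01, 0.02 and 0.03. For XLOC_011917 the nearest lay at 46123447 to 46301823 on chromosome 12 (29.1 and 31.6 RPKM), at 159313475 to 159610287 on chromosome 2 (14.1 and 15.7 RPKM) and at 79619739 to 79634611 on chromosome 16 (89.0 and 89.2 RPKM). Their differences were 0.04, 0.07 and 0.07. All 6 rows were of much lower abundance and longer span than the neighbours.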

How the data were processed

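RNA was measured in 2 mouse liver libraries, sham and cold storage, with no replicate. The authors deposited RPKM, 1 column per library, and 0 further value columns were left out. Build mm9 comes from the submitters' processing notes. No source used here gives the aligner, counter, annotation, strand handling or effective length. Without read counts the depth is unknown.

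The members and lists were chosen with earlier results of these data known. Log2 ratios used a pseudocount of 0.1 and rows with a mean of at least 0.5 RPKM and values above 0 in both libraries, with calls at 2-fold. The code for ratios and calls was checked on simulated data in which most rows did not differ between libraries. The deposited libraries are unlike that, so the check bears on the code and not on the calls made here. Named beside the 3 loci were the 3 rows most alike each, the 5 most abundant other loci under 1 kb and the flanking rows. The smallest whole-number ratios were sought after the data were seen. Of 69 symbols in 8 lists (small nuclear RNAs, their protein partners, liver cell markers), 0 matched a row name, so neither the tissue nor these genes could be checked. Alternatives were pseudocounts of 0.01 and 1, 4 other scalings, span limits of 500 bp and 2 kb or none, and RPKM times span. Computations used Python 3.11.15, numpy 2.4.6, pandas 2.3.3 and matplotlib 3.10.9.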

Additional observations from a re-analysis of the deposited data

How the results depend on the processing

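The neighbours' ratios between the libraries depend on the scaling, and their ratio to each other does not. The log2 ratio of XLOC_011916 was -0.75 as deposited, -0.083 with the same RPKM total in both libraries, 2.74 when centred on the median ratio, 2.36 with the same total without the 10 most abundant rows and 2.97 with the same upper quartile. That of XLOC_011917 was 0.08 as deposited and 0.75, 3.58, 3.19 and 3.80 under these scalings. XLOC_011916 thus changed sign under 3 of the 4 scalings. Other pseudocounts moved these ratios and the ratios of the neighbours by less than 1%. With RPKM times span, XLOC_011916 ranked 2 and XLOC_039512 ranked 1 of the loci under 1 kb in cold storage, because the latter is longer. With no limit on span, XLOC_011917 ranked 4 in sham. The shares of the column sum taken as RPKM times span were 0.307% in sham and 1.08% in cold storage for XLOC_011916. They were 0.00579% and 0.0361% for XLOC_011917, and 1.10% in cold storage for XLOC_039512. In sham this sum exceeds all mapped reads, so the sham shares are not shares of reads. The spans of longer rows may include introns. The 23 other values tried moved by no more than 1%. No paired analysis was possible because each group holds 1 library. No library could be left out, and the unknown depth limits every value here.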

Other observations

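The row numbers hold an order that the table does not explain. On 20 of 21 chromosomes the numbers form exactly 2 runs that ascend with position, and the exception is chromosome Y with 2 rows. Both chromosome 12 neighbours fall in the second run of their chromosome and carry consecutive numbers, and XLOC_039512 falls in the first run of chromosome 6. No source used here says what divides the runs.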
